A study of Mus musculus with 61 samples.

Results

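Fatty acid oxidation in mouse fat was followed through 30 genes for mitochondrial and peroxisomal enzymes, their transport steps and 2 of their controls. The genes were taken by symbol from the deposited count table of 21169 genes, and all 30 were present. All 30 also passed the filter on low counts, which left 18603 genes for testing. The mice came from 8 inbred strains, those that founded the Diversity Outbred stock, and every group ate a high-fat, high-sugar diet (45 percent fat by the labels), with no group on another diet. Adipose RNA gave 61 libraries, 8 for each of B6, NOD, NZO, PWK and WSB and 7 for each of AJ, Cast and 129. The labels name no fat depot, sex, age or sequencing batch. They also do not say that each library came from a separate mouse, so p-values measure the spread between these libraries.

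Long-chain fatty acids are activated to acyl-CoA by Acsl1 and enter mitochondria as carnitine esters through Cpt1, Slc25a20 and Cpt2. There the acyl-CoA dehydrogenases, hydratases, hydroxyacyl-CoA dehydrogenases and thiolases shorten the chain in repeated rounds, and electrons pass through Etfa, Etfb and Etfdh to the respiratory chain. Peroxisomes shorten very long or branched chains with a related set of enzymes, among them Acox3, Ehhadh, Hsd17b4 and the thiolases Acaa1a and Acaa1b. The nuclear receptor PPARα, product of Ppara, drives many of these genes in liver, and brown fat burns fatty acids for heat with the uncoupling protein Ucp1.

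Pairs of these genes are close copies, which bears on how their reads could be told apart. The peroxisomal thiolase genes Acaa1a (chr9:119339676-119350299, plus strand) and Acaa1b (chr9:119148023-119157093, minus strand), on build GRCm38, were identical at 96.55% of 1275 aligned coding bases, with a longest identical run of 327 bases. The thioesterase genes Acot1 (chr12:84009502-84017670) and Acot2 (chr12:83987861-83993873), both on the plus strand, were identical at 95.48% of 1239 aligned coding bases. The stretches of 60 coding bases printed here, from GENCODE M21 transcripts, show where the copies differ, with mismatches between the members of a pair in capitals. The first pair spans coding bases 259 to 318 and holds 11 mismatches, and the second spans bases 823 to 882 of Acot1 and 946 to 1005 of Acot2 and holds 13.
Acaa1a: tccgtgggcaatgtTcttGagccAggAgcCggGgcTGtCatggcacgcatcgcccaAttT
Acaa1b: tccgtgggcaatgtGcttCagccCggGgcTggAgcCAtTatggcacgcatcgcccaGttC
Acot1: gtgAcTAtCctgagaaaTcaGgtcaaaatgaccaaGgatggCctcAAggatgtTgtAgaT
Acot2: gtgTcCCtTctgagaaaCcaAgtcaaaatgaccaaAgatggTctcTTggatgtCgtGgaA
Read estimates of all 4 genes were not whole numbers in 100% of libraries, as happens when reads are divided among similar transcripts. The carnitine palmitoyltransferase genes Cpt1a and Cpt1b were far less alike, with 66.23% of 2310 aligned coding bases identical and a longest identical run of 20. Cpt1b nevertheless had estimates that were not whole in 100% of libraries, as did Acadvl and Eci2. Such estimates were also found in over 50% of libraries for Slc25a20, Hadhb, Etfb, Etfdh and Acox3, and the values of these 12 genes are less certain than those of the other 18.

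Hadha and Hadhb encode the α and β subunits of the mitochondrial trifunctional protein and lie head to head on chromosome 5. The RefSeq promoter table (GRCm38.p6) gives the 85 bases that separate their annotated starts, chr5:30155163-30155247, written here on the plus strand, in which 69.41% of bases are G or C and 9 CG pairs occur. This window was chosen after the gene positions were seen, and it is shown because the subunit genes had like values in the libraries, as described further on.
Hadha-Hadhb: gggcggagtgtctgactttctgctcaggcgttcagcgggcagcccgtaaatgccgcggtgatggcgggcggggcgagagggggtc

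Library totals lay between 19851580 counts (WSB replicate 4) and 61277576 counts (B6 replicate 8). The fat cell genes Adipoq and Plin1 were present in every library, at 259.51 to 3446 CPM (counts scaled to the library total) and 238.26 to 1892 CPM. Both lowest values came from Cast replicate 5, and Cast replicate 6 stood next to it in Adipoq at 435.52 CPM. Summed liver transcripts exceeded 500 CPM in 7 libraries, skeletal muscle transcripts exceeded 300 CPM in 4, and the epididymal gene Crisp1 exceeded 300 CPM in 5. Summed macrophage transcripts were 2272 to 6752 CPM in NZO, against 305.3 to 2656.5 CPM in the libraries of the other strains. Counts of calls in the strain contrasts and on Xist were recomputed without these sets of libraries, and counts of genes on other lists were not. Ucp1 was 751, 975 and 1295 CPM in the liver-rich PWK replicates 2 and 7 and Cast replicate 3. It was 407 to 1438 CPM in the muscle-rich AJ replicates 3 and 4 and WSB replicates 1 and 9. All of these also had Xist over 100 CPM. The other liver-rich libraries had Ucp1 at 0.214 to 9.92 CPM. In Cast and PWK, where calls changed without the liver-rich libraries, liver transcripts, Ucp1 and Xist cannot be told apart. The same holds for muscle transcripts in AJ and WSB without the muscle-rich libraries. The liver-rich library of B6, replicate 6, had low Xist (0.24 CPM) and is also rich in Crisp1. Of the B6 libraries it had the lowest summed mature fat cell transcripts (30713 CPM) and the highest macrophage sum (2656.5 CPM). What changed the calls in B6 and other strains was not tested.

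Per kilobase of transcript, over all libraries, Acsl1 was the most abundant of the 30 at 565 CPM per kb. Next came the β subunit gene Hadhb at 282, the electron transfer gene Etfb at 216 and the medium-chain dehydrogenase gene Acadm at 210 CPM per kb. Mitochondrial enzymes of the main spiral filled most upper places, and the peroxisomal Hsd17b4 stood at 139 CPM per kb. The lowest were Acot1 at 3.03, the receptor gene Ppara at 5.52, the peroxisomal reductase gene Decr2 at 10.2 and Acot2 at 12.7 CPM per kb. Cpt1a, at 32.9 CPM per kb, was above Cpt1b, at 19.5 CPM per kb.

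Strain means of all 30 genes differed in the edgeR F-test at an adjusted p under 0.05, a call that 89.9% of all genes tested received. WSB, a wild-derived strain, most often stood highest, and NZO, a strain known for obesity, most often stood lowest. The highest strain mean was in WSB for 17 genes and in Cast for 9, and the lowest was in NZO for 15, in B6 for 5 and in NOD for 4. Against the mean of the other 7 strains, 25 genes were higher in WSB (25.6% of all genes tested were called higher) and only Cpt1a was lower (23.7%; 49.3% in either direction). The median log2 fold change of the 30 genes in WSB was 0.96, against -0.01 for all genes.

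Cast, also wild-derived, had 20 genes higher (29.6% of all genes) and 2 lower (26.6%; 56.2% in either direction), with a median log2 fold change of 0.62. NZO had 17 genes lower (26.6% of all genes) and only Cpt1a higher (27.2%; 53.9% in either direction), with a median of -0.58. B6 had 11 lower (11.7%) and 2 higher (14.6%), NOD 7 lower (11.8%) and 2 higher (14.7%), and AJ 5 lower (9.59%) and 1 higher (13.4%). Without the libraries rich in Crisp1, 10 genes were called in AJ (22.5% of all genes) and 8 in B6 (22.7%). PWK was mixed, with 8 higher (24.6%) and 5 lower (19%, and 43.6% in either direction). Without the 7 liver-rich libraries, 3 of which are PWK libraries, only Eci1 stayed higher in PWK, at 0.74 on the log2 scale. The share of all genes called in PWK without those libraries is not given, so this loss is not read as particular to the 30 genes. PWK replicates 2 and 7, left out there, had Ucp1 at 751 and 975 CPM. The same step left 8 genes in all called in B6 (22.9% of all genes). In 129 no gene was called by edgeR (18.6% of all genes were, 7.78% as lower), 2 had an unadjusted p under 0.05, DESeq2 called 1 and limma on the deposited log2 values called 0.

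**Figure D1:**
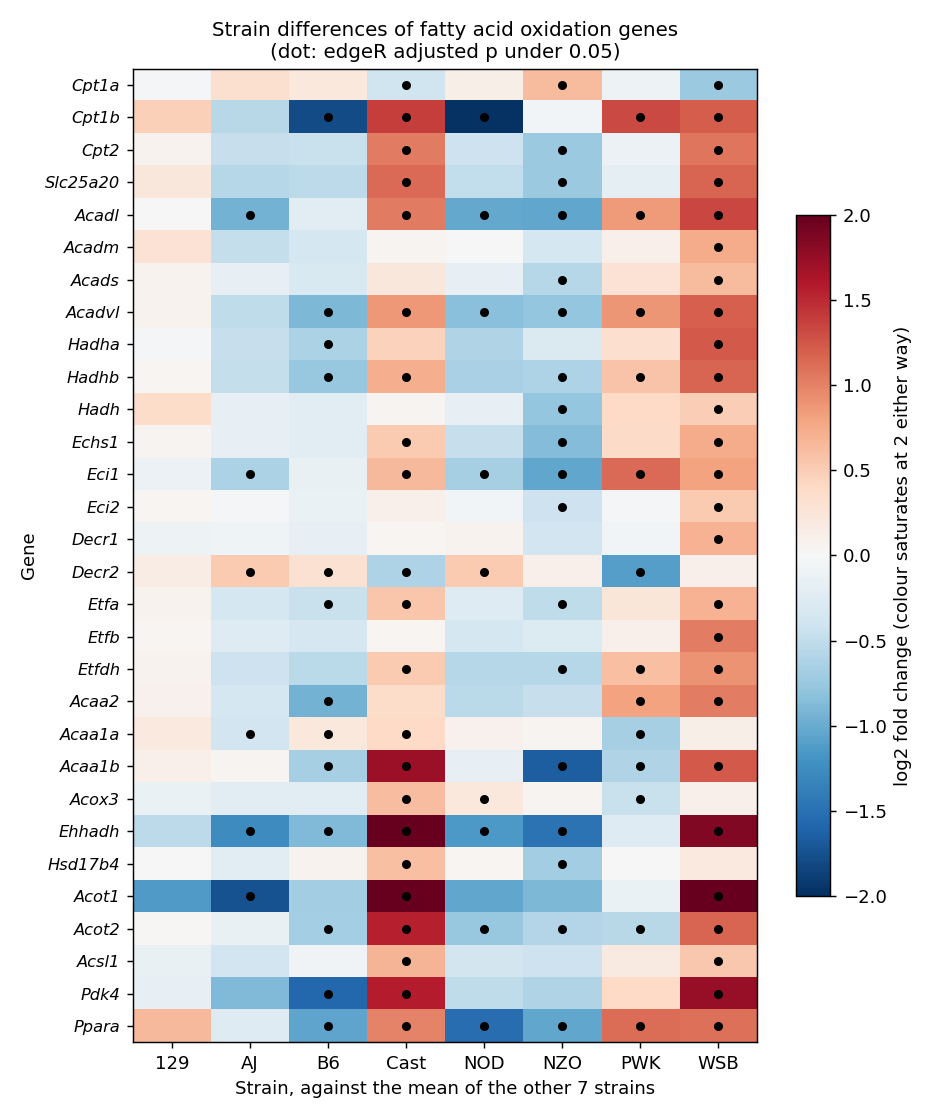
Log2 fold change of each of the 30 genes (rows) in each strain against the mean of the other 7 strains (columns), in colour, with a dot where the edgeR adjusted p was under 0.05. The WSB column is red and dotted for 25 genes, the NZO column is blue and dotted for 17, and the top row, Cpt1a, has the opposite colours.

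The genes of the carnitine shuttle, which carries long acyl chains into mitochondria, split in direction. Cpt1a, the isoform known from liver, had its lowest levels in WSB, at 52.9 to 139 CPM with a median of 80.3, and its highest in NZO, at 169 to 232 CPM with a median of 199. The WSB and NZO libraries did not overlap. Cpt1a was lower in WSB (log2 fold change -0.75 ± 0.15 standard error, edgeR adjusted p = 2.79e-05) and higher in NZO (0.63 ± 0.13, adjusted p = 5.02e-05). It was also called lower in Cast, at 77.9 to 154 CPM with a median of 96.6. The 2 genes lower in Cast were Cpt1a and Decr2, and without Cast replicates 5 and 6 only 1 gene was called lower there. Cpt1b, the isoform known from muscle and brown fat, ranged from 5.11 CPM in a PWK library to 269 CPM in a WSB library.

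Cpt1b also varied widely within strains. In PWK its 8 libraries lay at 5.11, 7.75, 14.1, 19.4, 102, 201, 211 and 229 CPM, in NOD they lay between 5.39 and 21.3 CPM, and in NZO between 34.2 and 72 CPM. It was higher in Cast, PWK and WSB, by 1.38 ± 0.48, 1.32 ± 0.45 and 1.22 ± 0.46 on the log2 scale, and lower in NOD (-1.98 ± 0.60) and B6 (-1.79 ± 0.59). The WSB value fell to 0.71 without the muscle-rich libraries and then did not pass (edgeR adjusted p = 0.268), and the Cast and PWK values did not pass without the liver-rich ones (adjusted p = 0.095 and 0.285). Cpt2, which returns the chain to CoA inside the mitochondrion, and Slc25a20, the carnitine carrier, were higher in WSB (1.06 ± 0.20 and 1.17 ± 0.20) and Cast (1.03 ± 0.21 and 1.13 ± 0.21). Both were lower in NZO, by -0.75 ± 0.23 and -0.74 ± 0.23.

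The acyl-CoA dehydrogenases catalyse the first step of each round, and all 4 were higher in WSB. Acadl, for long chains, had 294.5 to 1260 CPM in WSB with a median of 648, and 117 to 225 CPM in NZO with a median of 162, with no overlap. Cast was near WSB in Acadl, with a median of 548 CPM, and AJ and NOD were near NZO, with medians of 135 and 160 CPM. The log2 fold change of Acadl was 1.33 ± 0.21 in WSB (edgeR adjusted p = 4.16e-07) and -1.04 ± 0.25 in NZO (adjusted p = 0.00048). Acadvl, for very long chains, was higher in WSB (1.20 ± 0.24), PWK (0.89 ± 0.25) and Cast (0.86 ± 0.26), and lower in B6, NOD and NZO, with 0.39 in PWK without the liver-rich libraries (edgeR adjusted p = 0.306). Acadm, for medium chains, was called in WSB alone of the 8 strains (0.74 ± 0.18). Acads, for short chains, was higher in WSB (0.63 ± 0.18) and lower in NZO (-0.58 ± 0.20).

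All 5 genes of the later steps of the spiral were higher in WSB. Hadha had 392 to 1491 CPM in WSB with a median of 793, and Hadhb 428 to 1906 CPM with a median of 969. In NZO they had 269 to 448 CPM and 284 to 509 CPM. Hadha and Hadhb had log2 fold changes of 1.23 ± 0.20 and 1.17 ± 0.23 in WSB, and -0.64 ± 0.24 and -0.75 ± 0.27 in B6, the strain with the lowest mean of both. The B6 calls of Hadha and Hadhb did not hold without the liver-rich libraries (edgeR adjusted p = 0.0709 and 0.0598). Hadh, the dehydrogenase for shorter hydroxyacyl chains, and Echs1, the short-chain hydratase, were higher in WSB (0.50 ± 0.19 and 0.75 ± 0.17) and lower in NZO (-0.77 ± 0.21 and -0.87 ± 0.20). Hadh did not pass in WSB without the muscle-rich libraries (0.33, edgeR adjusted p = 0.217). Acaa2, the mitochondrial thiolase, was higher in WSB (1.02 ± 0.24) and PWK (0.81 ± 0.24) and lower in B6 (-0.94 ± 0.28), but its PWK value was 0.38 without the liver-rich libraries (edgeR adjusted p = 0.305).

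**Figure D2:**
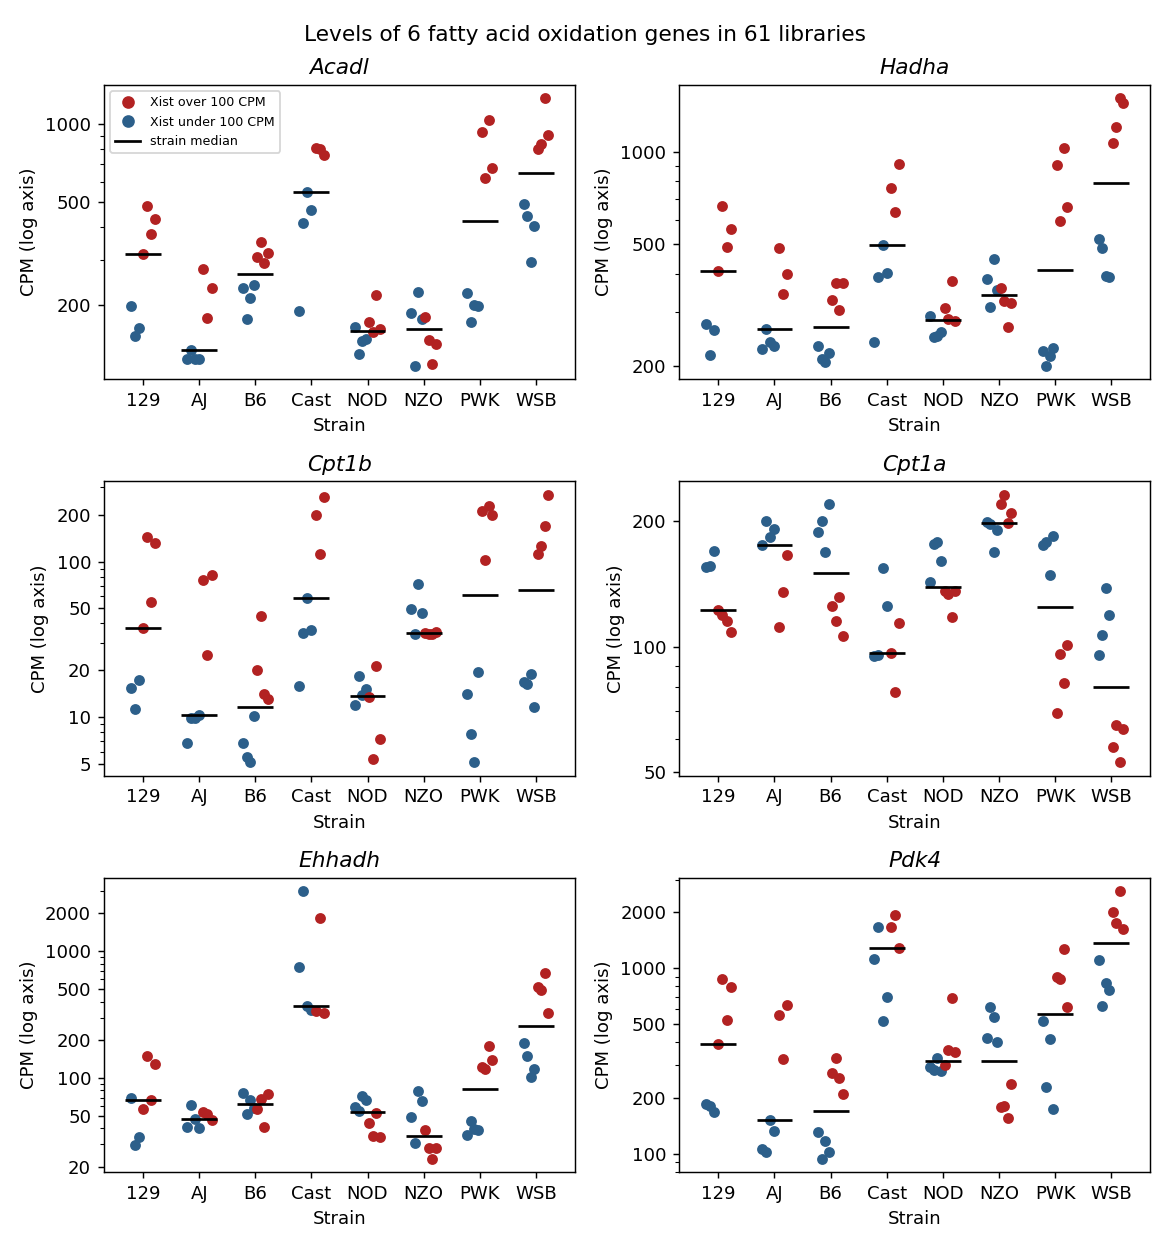
CPM of 6 genes in each of 61 libraries on log axes, by strain, with the strain median as a line and libraries over 100 CPM of the X-chromosome transcript Xist in red. Acadl and Hadha are high in WSB, Acadl is low in AJ, NOD and NZO, Cpt1a is low in WSB and high in NZO, and Ehhadh reaches 2975 CPM in 1 Cast library.

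The isomerases and reductases handle unsaturated chains, and 3 of 4 were higher in WSB: Eci1 (0.80 ± 0.19), Eci2 (0.53 ± 0.08) and Decr1 (0.69 ± 0.17). Eci1 had its highest mean in PWK, 162 ± 107 CPM (SD, n = 8), with libraries from 59.8 to 312 CPM, and its lowest in NZO, 43.7 ± 12.6 CPM (SD, n = 8). Decr2, a peroxisomal reductase, had another order of strains. It stood at 7.68 to 13.3 CPM in PWK and 7.1 to 17.7 CPM in Cast, and at 17.7 to 32.3 CPM in NOD, with no overlap between PWK and NOD. Decr2 was lower in PWK (-1.10 ± 0.13, edgeR adjusted p = 2.63e-10) and Cast (-0.62 ± 0.13) and higher in NOD, AJ and B6 (0.52 ± 0.11, 0.52 ± 0.12 and 0.31 ± 0.11).

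Electron transfer from the dehydrogenases rested on 3 genes, which were all higher in WSB. Etfb, a subunit of the electron transfer flavoprotein, had 221 to 584 CPM in WSB with a median of 332, and medians between 148 and 218 CPM in the other strains. Its log2 fold change in WSB was 1.03 ± 0.18 (edgeR adjusted p = 5.99e-06), and it was called in no other strain. Etfa, the other subunit, was higher in WSB (0.70 ± 0.14) and Cast (0.56 ± 0.15) and lower in NZO (-0.51 ± 0.15) and B6 (-0.44 ± 0.15). Etfdh, the dehydrogenase that passes the electrons to ubiquinone, was higher in WSB (0.90 ± 0.20), PWK (0.60 ± 0.21) and Cast (0.53 ± 0.22). Its PWK and Cast calls did not hold without the liver-rich libraries (edgeR adjusted p = 0.519 and 0.1), nor did the B6 call of Etfa (adjusted p = 0.0702).

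The 5 peroxisomal enzymes were all higher in Cast. Ehhadh, the bifunctional enzyme, showed the largest ratio between strain means of the 30 genes, from 42.7 ± 20.1 CPM in NZO (SD, n = 8) to 989 ± 1031 CPM in Cast (SD, n = 7). The Cast libraries lay at 328, 335, 343, 368, 746, 1829 and 2975 CPM, all above every library of 129, AJ, B6, NOD, NZO and PWK. WSB was next, at 102 to 671 CPM with a median of 258. The log2 fold change of Ehhadh was 3.70 ± 0.24 in Cast (edgeR adjusted p = 2.7e-19) and 1.84 ± 0.26 in WSB (adjusted p = 4.75e-08). Without Cast replicates 5 and 6, where fat cell transcripts were low, the Cast value was 3.07.

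Acaa1b, a thiolase, ranged from 19 CPM in an NZO library to 810 CPM in Cast replicate 6. It was higher in Cast (1.71 ± 0.21) and WSB (1.22 ± 0.21) and lower in NZO (-1.66 ± 0.26, edgeR adjusted p = 4.04e-07), and the Cast value was 1.08 without Cast replicates 5 and 6. Its near copy Acaa1a moved over a narrower range, from 58.2 ± 17 CPM in PWK (SD, n = 8) to 111 ± 17.9 CPM in Cast (SD, n = 7). Acaa1a was lower in PWK (-0.67 ± 0.09) and AJ (-0.38 ± 0.09), 0.12 ± 0.08 in WSB (adjusted p = 0.226) and 0.06 ± 0.08 in NZO (adjusted p = 0.585). Acox3, an oxidase for branched chains, was higher in Cast (0.62 ± 0.08, or 0.39 without Cast replicates 5 and 6) and lower in PWK (-0.44 ± 0.09). Hsd17b4, a multifunctional enzyme, was higher in Cast (0.61 ± 0.12) and lower in NZO (-0.70 ± 0.13), and its Cast libraries ran from 168 CPM in replicate 5 to 712 CPM in replicate 2.

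Of the genes for activation and release of acyl chains, Acot1, a cytosolic thioesterase, had 11.4 to 59.8 CPM in Cast and 3.17 to 31.6 CPM in WSB. In AJ it had 0.654 to 3.54 CPM, below every Cast library. The log2 fold change of Acot1 was 3.40 ± 0.34 in Cast (edgeR adjusted p = 1.84e-12), 2.22 ± 0.35 in WSB and -1.74 ± 0.52 in AJ. On the deposited log2 scale, which compresses low counts, limma gave 2.38 for Cast and 1.18 for WSB. Acot2, its mitochondrial relative, was higher in Cast (1.55 ± 0.18) and WSB (1.16 ± 0.18) and lower in B6, NOD, NZO and PWK. Acsl1, an abundant long-chain acyl-CoA synthetase of fat cells, was higher in Cast (0.68 ± 0.19) and WSB (0.54 ± 0.18), and its strain means spanned 1659 CPM in NZO to 3225 CPM in Cast. Acsl1 was not called in WSB without the muscle-rich libraries (0.42, adjusted p = 0.103).

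Of the controls, Pdk4, a kinase that holds back pyruvate dehydrogenase and so glucose oxidation, had 623 to 2598 CPM in WSB with a median of 1368, and 520 to 1926 CPM in Cast with a median of 1288. In B6 it had 94 to 330 CPM, with no overlap with WSB or Cast. The log2 fold change of Pdk4 was 1.75 ± 0.26 in WSB (edgeR adjusted p = 2.38e-07), 1.57 ± 0.28 in Cast and -1.57 ± 0.35 in B6. Ppara was highest on average in PWK, at 31.4 ± 27 CPM (SD, n = 8), and WSB, at 31.2 ± 22.6 CPM (SD, n = 8), and lowest in NOD, at 6.32 ± 1.03 CPM (SD, n = 8). Ppara was higher in PWK (1.12 ± 0.32), WSB (1.11 ± 0.33) and Cast (0.98 ± 0.35). Those calls did not hold in PWK and Cast without liver-rich libraries (adjusted p = 0.205 and 0.131) nor in WSB without muscle-rich ones (adjusted p = 0.1).

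Within pairs of strains, WSB differed from NZO in 26 genes (55.9% of all genes were called), 25 of them higher (27.9% of all genes were called higher in WSB) and Cpt1a lower (28%), with a median log2 fold change of 1.30. The largest were Ehhadh (2.91 ± 0.43), Acot1 (2.72 ± 0.59), Acaa1b (2.52 ± 0.32) and Acadl (2.08 ± 0.32). Cast and PWK, both wild-derived, differed in 11 genes, all higher in Cast (21.8% of all genes). That is 36.7% of the 30, below the 44.8% of all genes that were called in either direction. These were the 5 peroxisomal enzymes, with Ehhadh at 3.46 ± 0.44, the thioesterase genes Acot1 and Acot2, Cpt2, Slc25a20, Decr2 and Pdk4. Without Cast replicates 5 and 6 Hsd17b4 went from 0.53 to 0.83 and Pdk4 was not called (0.97, edgeR adjusted p = 0.0889). None of the dehydrogenases, the later mitochondrial steps or the electron transfer genes was called between Cast and PWK by edgeR, and no gene was lower at an unadjusted p under 0.05. AJ and B6 differed in 1 gene, Acaa1a, which was lower in AJ (-0.52 ± 0.11, edgeR adjusted p = 0.000723, 5.93% of all genes called lower and 5.77% higher). These contrasts share libraries with those of single strains and are not independent of them.

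Other genes of the pathway, on lists that hold none of the 30, are given as counts for WSB (25.6% of all genes called higher and 23.7% lower) and NZO (27.2% and 26.6%). In WSB 11 of 14 other mitochondrial oxidation genes were higher and 1 lower, with a median log2 fold change of 0.73, among them Echdc2 (1.23 ± 0.08) and Acad11 (1.07 ± 0.20). Of 21 other peroxisomal oxidation genes 14 were higher and 0 lower in WSB by edgeR, with a median of 0.50, and Eci3 (2.62 ± 0.19) and Acot4 (1.30 ± 0.20) led them. Of 16 peroxisome assembly genes 13 were higher and 0 lower, with Pex3 at 0.88 ± 0.08. Of 15 other activation and transport genes 8 were higher and 1 lower, led by Acacb (2.28 ± 0.25), whose product makes the malonyl-CoA that holds back Cpt1. Of 13 genes of pyruvate dehydrogenase and its control 11 were higher, such as Pdk2 (1.27 ± 0.15), and Pdk3 was lower (-0.71 ± 0.17). The median of all genes in WSB was -0.01.

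In NZO 12 of 14 other mitochondrial genes were lower, with Acad10 (-1.64 ± 0.19) and Echdc3 (-1.64 ± 0.20) lowest. Of 21 other peroxisomal genes 16 were lower, Eci3 among them (-3.55 ± 0.32), and 1 was higher. Of 16 peroxisome assembly genes 13 were lower, with Pex3 at -0.78 ± 0.10. Acacb was lower too (-1.86 ± 0.35). The coactivator gene Ppargc1a, which promotes oxidative metabolism, was higher in WSB (1.91 ± 0.25) and lower in NZO (-0.98 ± 0.31). PPAR targets outside oxidation were divided, with 4 of 14 higher and 3 lower in WSB, where the lipid droplet gene Plin5 was higher (0.76 ± 0.24) and Plin2 lower (-0.97 ± 0.16). Ketone body genes were divided as well, with 2 of 7 higher and 1 lower in WSB.

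Markers of other cells moved along with these contrasts. In WSB 7 of 9 thermogenic fat cell genes were higher and so were 11 of 12 skeletal muscle genes, and 9 of 12 macrophage rows were lower. The summed thermogenic transcripts ran from 97.9 to 2200 CPM in WSB and the muscle transcripts from 10.3 to 610 CPM. In NZO 11 of 12 macrophage rows were higher, 9 of 12 mature fat cell genes were lower, and 4 of 9 thermogenic genes were lower. Also in NZO, 8 of 12 muscle genes and 7 of 7 mesothelial genes were lower, and 5 of 5 B cell genes were higher. Adipoq was lower in NZO (-1.18 ± 0.23) and higher in WSB (0.65 ± 0.19). In Cast 7 of 9 thermogenic and 5 of 7 mesothelial genes were higher, and in PWK 7 of 9 thermogenic and 11 of 14 liver genes were. In NOD 6 of 9 thermogenic and 5 of 12 muscle genes were lower, and in AJ 12 of 12 muscle genes were higher. Summed muscle transcripts in AJ were 1616 and 3305 CPM in replicates 3 and 4, against 30.9 to 68.9 CPM in its other libraries. In bulk tissue fewer cells of a type and less RNA per cell cannot be told apart, and the part of these markers in the strain differences was not tested.

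Much of the variation lay within strains. Strain accounted for a median of 47.8% of the variance in log2 CPM of the 30 genes, against 48.7% for all genes tested, and 13 of the 30 were above that value. Ehhadh had the highest share, at 75.1%, and Decr1 the lowest, at 21.6%. Once strain means were removed, 1 principal component held 72.7% of the variance of the 30 genes, against 17.2% for all genes. Loadings of 25 genes on it were between 0.155 and 0.211, Ehhadh had 0.124, Cpt1a had -0.168, and Acaa1b, Acot1 and Acox3 lay between -0.00758 and 0.0111. Within strains the SD of log2 CPM was largest for Cpt1b at 1.45, Acot1 at 1.13 and Ppara at 0.99, and smallest for Acox3, Acaa1a and Eci2, at 0.21 to 0.22.

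The labels give no sex, and none was inferred, but Xist, the long noncoding RNA of the inactive X chromosome, divided the libraries. It was at 0.0275 to 54.7 CPM in 31 libraries and at 393 to 719 CPM in 30, and each strain had 3 or 4 libraries of the higher kind. Cast replicate 8, at 54.7 CPM, lay between. The limit of 100 CPM used to describe them was set after these values were seen. Xist on the log2 scale was also entered as a covariate within strain, and its slope gives the change in log2 CPM per log2 unit of Xist.

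Within strains, 25 of the 30 genes were higher with Xist (17.6% of all genes were called higher) and only Cpt1a was lower (18.9%, and 36.6% in either direction). The median slope was 0.06, against -0.000524 for all genes. The steepest were Cpt1b (0.21 ± 0.03, edgeR adjusted p = 1.43e-06), Ppara (0.13 ± 0.02) and Acadvl and Hadhb (0.10 ± 0.01 each), and Cpt1a had -0.05 ± 0.01 (adjusted p = 5e-06). The 4 genes that were not called were Acaa1b, Acox3, Ehhadh and Acot1. The calls of Eci2 and Hsd17b4 did not hold without the liver-rich libraries (edgeR adjusted p = 0.0563 and 0.146). Ucp1 had a slope of 0.56 ± 0.07, and all 9 thermogenic genes tested and 9 of 12 muscle genes were higher with Xist. Of the 12 mature fat cell genes 2 were higher with Xist. The defining genes Adipoq and Plin1 had slopes of 0.02 ± 0.02 (edgeR adjusted p = 0.223) and -0.00 ± 0.01 (adjusted p = 0.994), pooled over strains that differed. With high Xist, Adipoq was all higher in B6 (2656 to 2972.5 against 1376 to 2129 CPM) and 129. It was all lower in PWK (2015.5 to 2705 against 2827 to 3446 CPM) and NZO, and overlapped in the other strains. Plin1 was all lower in WSB (944 to 1330 against 1783 to 1836 CPM) and overlapped in the other strains. Of other markers, 5 of 6 endothelial genes and 4 of 12 macrophage rows were lower with Xist, and 4 of 6 progenitor genes were higher. The part of these cells in the slopes was not tested.

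The relation differed between strains. Slopes were unequal among strains for 27 of the 30 genes (41.3% of all genes tested) in the edgeR F-test of interaction, and slopes were then taken for each strain from that fit. In PWK 25 genes were higher with Xist (15.8% of all genes) and 2 lower (15.6%), in WSB 23 higher (9.39%) and 1 lower (8.36%), in Cast 18 higher (9.54%) and 2 lower (12%), and in 129 17 higher (2.23%) and 0 lower (3.64%, and 5.87% in either direction, with 1 at an unadjusted p under 0.05). In B6 11 were higher (5%) and 1 lower (6.23%), and in AJ 4 were higher (2.86%) and 0 lower (0.962%, and 3.82% in either direction, with 1 at an unadjusted p under 0.05). In NOD edgeR called 0 genes (3.68%), with 3 at an unadjusted p under 0.05. In NZO it called only Pdk4, which was lower (4.02%), and 5 were lower at an unadjusted p under 0.05.

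Some of these counts rested on few libraries. In Cast, replicates 5 and 6 are 2 of the 4 libraries with low Xist, and their summed mature fat cell transcripts were 16560 and 24389 CPM, against 41088 to 64907 CPM in the others. With Xist in Cast 3 of 12 mature fat cell genes were higher and 4 of 6 endothelial genes lower, and without both libraries 1 of the 30 genes was called (3.72% of all genes). In 129 the 3 libraries with low Xist are the ones rich in Crisp1, at 302 to 1009 CPM against 0 in the 4 others. Xist and Crisp1 cannot be told apart in 129, and no slope without those libraries can be had. In B6 1 gene was higher and 1 lower without the liver-rich libraries (5.06% of all genes called, against 11.2% with them). As many were called without the Crisp1-rich ones (4.53%), sets that share B6 replicate 6. In AJ 1 library with high Xist was left without the muscle-rich libraries, too few for a count of calls to be read. In PWK 19 were higher and 2 lower without the liver-rich libraries (13.6% of all genes called, against 31.4% with them). In WSB 18 were higher and 1 lower without the muscle-rich ones (8.66%, against 17.8% with them).

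**Figure D3:**
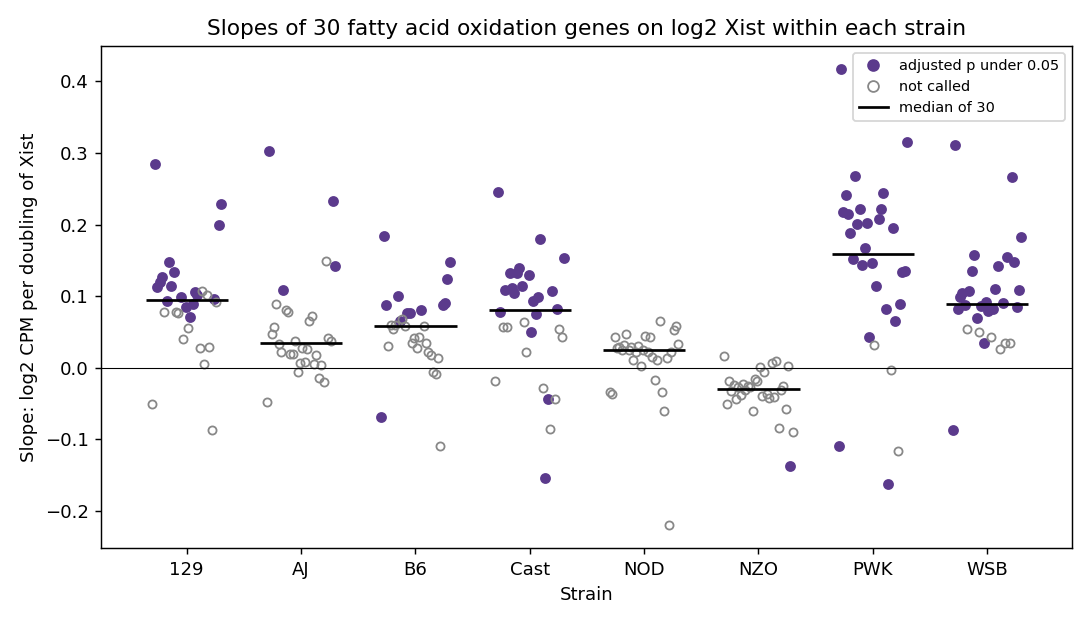
Slopes of the 30 genes on log2 Xist in each of 8 strains, in log2 CPM per log2 unit of Xist, filled where the edgeR adjusted p was under 0.05, with the median of the 30 as a line. The medians are 0.16 in PWK and 0.09 in 129 and WSB, 0.03 in NOD and -0.03 in NZO.

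The library values show the same contrast between strains. In WSB all 30 genes separated the libraries over 100 CPM of Xist from those under it, 29 higher (13.2% of all genes) and Cpt1a lower (11.7%). In PWK 25 were separate and higher (15%) and 2 separate and lower (14.2%). Hadha in PWK was at 595, 660, 907 and 1028 CPM in the libraries with high Xist and at 201, 217, 225 and 229.5 CPM in the others. In NZO 0 genes were separate and higher (7.48%) and 3 separate and lower (5.82%), and Hadha was at 269 to 359 CPM in the libraries with high Xist and at 313 to 448 CPM in the others. In NOD 3 were separate and higher (7.6%) and 2 separate and lower (6.38%). The counts were 25 higher and 1 lower in 129 (14.3% and 15.4%), 20 and 2 in B6 (13.4% and 14%), 17 and 1 in AJ (11.7% and 12.5%), and 15 and 1 in Cast (4.93% and 5.7%). The 129 count sets Crisp1-rich libraries against the others. In Cast 17 were separate and higher and 3 separate and lower without replicates 5 and 6, with 3 and 2 libraries on the sides. The share of all genes was not computed for that set, and so few libraries separate easily, so no reading is given.

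Pdk4 and Acaa1b had slopes in opposite directions. Pdk4 had slopes of 0.23 ± 0.04 in AJ, 0.20 ± 0.04 in 129 and 0.12 ± 0.04 in B6, and -0.14 ± 0.03 in NZO, all called, and the test of unequal slopes gave an edgeR adjusted p of 1.99e-05. Its NZO libraries with high Xist had 156, 178, 182 and 237 CPM, all below the others, which had 398, 423, 548 and 616 CPM. With Xist in NZO 5 of 12 macrophage rows were higher, and 6 of 7 mesothelial, 4 of 6 endothelial and 3 of 12 mature fat cell genes were lower, and their part in the Pdk4 slope was not tested. The B6 slope of Pdk4 did not pass without the liver-rich libraries (edgeR adjusted p = 0.0816). Its AJ slope was 0.16 without the muscle-rich libraries, a value that rests on 1 library with high Xist. In AJ the 3 libraries with high Xist had 325, 560 and 638 CPM and the others 102 to 152 CPM. Acaa1b had slopes of 0.09 ± 0.03 in WSB and of -0.15 ± 0.03 in Cast and -0.16 ± 0.03 in PWK (edgeR adjusted p for unequal slopes = 1.39e-05). Its PWK libraries with high Xist had 25.9 to 49.7 CPM and the others 67.3 to 167 CPM, and in WSB the ranges were 261 to 293 CPM and 117 to 159 CPM. The Cast slope of Acaa1b was -0.07 without Cast replicates 5 and 6 (edgeR adjusted p = 0.458), and the WSB slope did not pass without the liver-rich (adjusted p = 0.0521) or muscle-rich libraries (adjusted p = 0.104).

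Ucp1, the defining gene of thermogenic fat cells, was compared in the same libraries. Ucp1 was at 524 to 1438 CPM in the WSB libraries with high Xist and at 3.97 to 9.67 CPM in the others, and at 404 to 1053 CPM against 0.14 to 6.92 CPM in PWK. In NOD the ranges were 0.511 to 6.28 CPM and 0.084 to 8.51 CPM, and in NZO 64.4 to 78.3 CPM and 33.2 to 66.2 CPM. The ratio of Cpt1b to Cpt1a, in CPM not corrected for length and used here only to compare libraries, ran from 0.0278 in a B6 library to 4.24 in a WSB library. It was 1.94 to 4.24 in the WSB libraries with high Xist and 0.0977 to 0.176 in the others, but 0.148 to 0.174 and 0.174 to 0.426 in NZO and 0.0404 to 0.181 and 0.0779 to 0.104 in NOD. Summed mature fat cell transcripts overlapped between the libraries with high and low Xist in Cast, NOD, NZO, PWK and WSB. In WSB they were 41762 to 54845 CPM with high Xist and 49479 to 62400 CPM in the others. With high Xist they were all higher in 129 (51560 to 55473 against 36754 to 46505 CPM) and B6 (52128 to 53781 against 30713 to 44740 CPM). In AJ they were all lower with high Xist, at 33471 to 50919 against 51079 to 54828 CPM. The part of thermogenic or mature fat cells in the differences between these libraries was not tested.

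**Figure D4:**
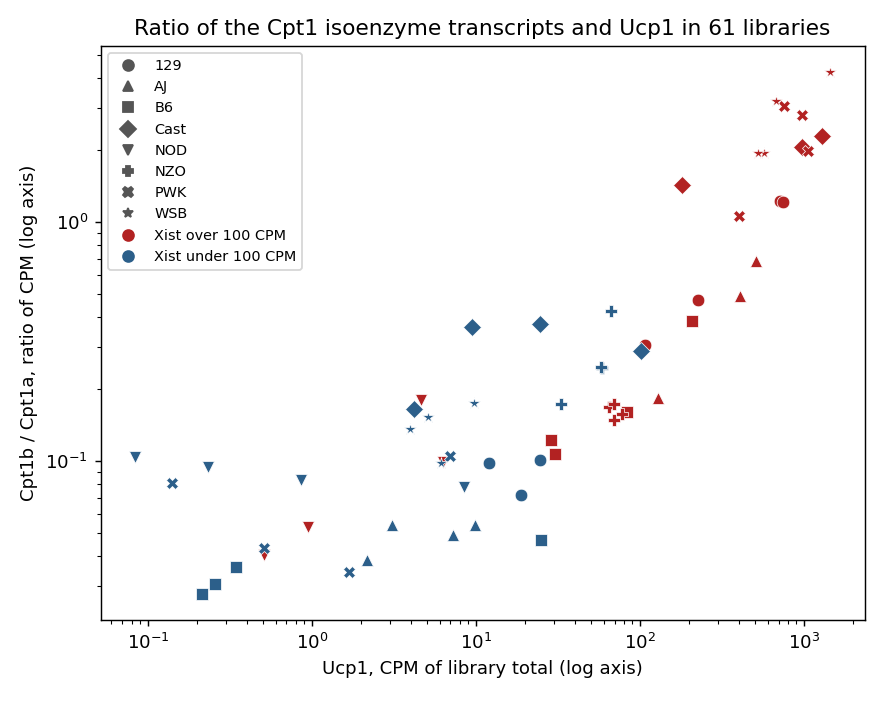
Ratio of Cpt1b to Cpt1a CPM against Ucp1 CPM in 61 libraries, both on log axes, with a marker for each strain and red for libraries over 100 CPM of Xist. Ratios over 1 occur only in libraries with Ucp1 over 100 CPM, and all NOD libraries lie below 0.2 on the ratio axis. The libraries form separate clusters, so no correlation is given.

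Promoter sequence was searched for the element that PPAR receptors bind with their partner RXR. RefSeq windows from 250 bases before to 50 after the start were found for 26 of the 30 genes, all but Cpt1b, Decr1, Acaa2 and Hsd17b4. The direct repeat, AGGTCA followed by any 1 base and AGGTCA again, on either strand, was in 0 of 26 windows and in 0.0396% of 32851 windows of all genes. So rare an exact repeat would be missing from almost any 26 windows, so the 0 does not show that such elements are absent. Looser or more distant elements were not searched. The single motif AGGTCA, which is part of that repeat, was in the windows of Acadm, Echs1, Acadvl and Cpt1a, 4 of 26 or 15.4%, and in 16.3% of all windows. The upstream parts of the Acadvl and Cpt1a windows are printed 5′ to 3′ on each gene's own strand, with the motif, read on either strand, in capitals. They were chosen after the search because the levels of these genes went opposite ways in WSB and NZO while both windows hold the motif. They span chr11:70015429-70015678 (minus strand) and chr19:3323051-3323284 (plus strand).
Acadvl: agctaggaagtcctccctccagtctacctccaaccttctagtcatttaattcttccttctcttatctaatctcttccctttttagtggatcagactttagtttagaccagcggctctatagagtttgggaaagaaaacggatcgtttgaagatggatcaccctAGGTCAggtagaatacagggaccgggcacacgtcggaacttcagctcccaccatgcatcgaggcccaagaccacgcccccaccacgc
Cpt1a: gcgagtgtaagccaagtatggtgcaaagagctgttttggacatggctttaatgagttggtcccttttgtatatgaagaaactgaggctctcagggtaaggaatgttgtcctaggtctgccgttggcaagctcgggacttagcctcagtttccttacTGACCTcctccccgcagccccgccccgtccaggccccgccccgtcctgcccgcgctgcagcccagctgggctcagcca
The motif starts 87 bases before the annotated start in Acadvl and 94 before it in Cpt1a.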

How the data were processed

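Polyadenylated RNA of 61 adipose libraries was sequenced. The authors deposited expected counts per gene, of which 21.1% are not whole numbers (tolerance 1e-06), and variance-stabilised log2 values. The submitters' processing notes name DESeq2 and build GRCm38, and the aligner and counter are not given in the sources used here. Expected counts were rounded and analysed in R 4.3.3 with edgeR 4.0.16: TMM scaling, filterByExpr by strain (2566 genes set aside), quasi-likelihood tests with Benjamini-Hochberg adjustment over all genes tested, and a threshold of 0.05. Each strain was compared with the mean of the other 7. CPM of the 30 genes and of Xist are TMM-scaled, and marker and Ucp1 CPM use library totals. Slopes for each strain were added after unequal slopes were seen, as were their values without sets of libraries. Reads shared by similar transcripts or by opposite strands may be misassigned. DESeq2 1.42.0 and limma 3.58.1, on the deposited log2 values, were alternatives. Scripts were tested on simulated data. Of the genes outside the 30, the text names from each list the 2 called genes with the largest rise and fall, with a mean of at least 1 CPM, or some of these. The 30 genes and all lists were chosen with earlier results of these data known. Of 10 listed male genital duct genes only Crisp1 could be used.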

Additional observations from a re-analysis of the deposited data

Results flagged for a closer look

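Of 240 groups of libraries (30 genes in 8 strains), 9 had a library far from the rest by Dixon's test, which by chance flags about 1 in 20 groups. Cast replicate 5, which also had the lowest Adipoq, was lowest in Cpt2 at 82.1 CPM (other Cast libraries 241 to 414), in Acadm at 152 CPM (394 to 575), in Eci1 at 49.1 CPM (111 to 150) and in Eci2 at 55.2 CPM (76.9 to 98). Acaa1b was highest in Cast replicate 6 at 810 CPM (127 to 240) and in AJ replicate 2 at 151 CPM (84.1 to 104). Acox3 was highest in NOD replicate 6, a library rich in Crisp1, at 136 CPM (70.5 to 84.5) and in NZO replicate 1 at 87.8 CPM (73.7 to 79.6). Pdk4 was highest in NOD replicate 4 at 688 CPM (279 to 365). What set these libraries apart was not tested.

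Slopes on Xist differed among strains for 27 of the 30 genes. Acaa1b (edgeR adjusted p = 1.39e-05 for unequal slopes) had called slopes upward in WSB and downward in PWK and Cast. The PWK slope was also called without the liver-rich libraries (edgeR adjusted p = 0.000777), and the Cast slope was not called without Cast replicates 5 and 6 (adjusted p = 0.458). Pdk4 (edgeR adjusted p = 1.99e-05) had a called slope downward in NZO and upward in 129, AJ, B6, PWK and WSB. The PWK slope of Pdk4 did not pass without the liver-rich libraries (edgeR adjusted p = 0.305).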

How the results depend on the processing

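Over 14 alternatives, 2279 of 2368 values of called genes kept their direction and call, 89 lost the call and 0 reversed. RLE size factors, DESeq2, a mean of at least 5 CPM and leaving out WSB replicate 7 lost 0 calls, limma on the deposited log2 values lost 23 and leaving out the liver-rich libraries lost 19. Counts of genes called that moved by over 1.5 times were, in 129, 1 without the liver-rich libraries (19% of all genes) and 1 with DESeq2 (21.1%), against 0 (18.6%). In AJ the count was 10 without the Crisp1-rich libraries (22.5%), against 6 (23%). In B6 it was 8 without the liver-rich libraries (22.9%), 8 without the Crisp1-rich ones (22.7%) and 8 with limma (25.9%), against 13 (26.3%). In NOD it was 15 with Xist as a covariate (29.4%) and 14 with DESeq2 (28.6%), against 9 (26.5%). In PWK it was 6 without the liver-rich libraries (1 higher and 5 lower) and 8 with limma (2 higher and 6 lower), against 13 (8 higher and 5 lower). The cause was not tested. WSB against NZO gave 26 under every setting. Counts of called slopes within a strain were recomputed after the data were seen. In Cast they went from 20 (21.6% of all genes) to 1 (3.72%) without replicates 5 and 6. In B6 they went from 12 (11.2%) to 2 without the liver-rich library (5.06%). They also went to 2 without the Crisp1-rich one (4.53%), which is the same library. For AJ no count without the muscle-rich libraries is given, as 1 library with high Xist was left. Once strain means were removed from log2 CPM, libraries of other strains with the same replicate number had a median correlation of 0.108 (96 of 186 pairs over 0.1). For other numbers it was -0.0184 (418 of 1441), and 22 of 61 libraries were closest to their own number by this measure. Libraries numbered 1 to 4 had Xist over 100 CPM and later numbers had less, except in AJ replicate 1, PWK replicates 3, 4, 6 and 7 and WSB replicate 9. Number and Xist can therefore not be fully told apart. The labels do not say that numbers pair samples, and the main tests did not pair them. With a replicate block 10 of 171 values lost the call, the Xist count was 24, while the share of all genes called for Xist went from 36.6% to 17.9%, and the count for unequal slopes 26. Depth limits Acot1 and Ppara most, which had the fewest counts per kilobase.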
